A study of Mus musculus with 40 samples.

Results

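Fatty acid binding proteins (FABPs) are small cytosolic carriers that hold long-chain fatty acids and move them between membranes, enzymes and the nucleus. The 5 FABP genes Fabp1, Fabp2, Fabp4, Fabp5 and Fabp7 were followed here in mouse liver RNA, out of 40239 genes that both count tables held after the removal of rRNA. They were chosen by name, and all 5 were among the 12942 genes that reached at least 1 CPM, the count scaled to a common library total, in at least 5 of the 40 mice. The 40 male mice, all labelled C57BL6/J, were 5 months old at collection and formed 8 groups of 5. Wild-type (WT) mice and mice with a liver-specific PPARγ knockout (KO) received a control diet, the control diet with pioglitazone (Pio), a high-fat diet (HFD) or the HFD with Pio (HFD-Pio). Feeding began at 2 months of age and lasted 3 months. The HFD drew 60% of its calories from fat. Pio is a thiazolidinedione, a ligand that switches on PPARγ, and was mixed into the diet at 0.01%. In the KO mice, Cre recombinase under the albumin promoter deleted loxP-flanked PPARγ, so that the deletion is aimed at hepatocytes and liver cells that never made Cre keep the gene. The KO mice came from PPARγ-loxP mice bred to Alb-Cre transgenics, while the WT mice were C57BL6/J animals from a vendor and not floxed mice without Cre. Each genotype has a count table of its own, and table and genotype cannot be told apart. Levels were therefore compared within a genotype, and only effects were compared between genotypes.

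Fabp1 is the liver form and one of the most abundant proteins of the hepatocyte cytosol. Fabp2 is the intestinal form, Fabp4 the form of adipocytes and macrophages, Fabp5 the epidermal form, which macrophages and endothelial cells also make, and Fabp7 the form of brain glia. PPARα and PPARγ are receptors for fatty acids that pair with RXR on DNA elements made of a repeated AGGTCA. Fabp1 is a textbook target of PPARα and Fabp4 of PPARγ, and both proteins can bring ligands to these receptors.

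On GRCm38 (GENCODE M21), Fabp1 (ENSMUSG00000054422) lies on chromosome 6 from 71199827 to 71205023, Fabp2 (ENSMUSG00000023057) on chromosome 3 from 122895072 to 122899506, and Fabp7 (ENSMUSG00000019874) on chromosome 10 from 57784881 to 57788450, all on the plus strand. Fabp5 (ENSMUSG00000027533) and Fabp4 (ENSMUSG00000062515) share a cluster on chromosome 3. Fabp5 spans 10012548 to 10016607 on the plus strand and Fabp4 spans 10204088 to 10208576 on the minus strand. Pmp2 and Fabp9 lie between them, and Fabp12 begins beyond Fabp4 at 10244209. The antisense gene 4933405D12Rik overlaps Fabp2, and strand-specific counting is not stated, so reads there could belong to either gene.

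A RefSeq promoter of 300 bases, 250 before and 50 after the gene start, was matched for 3 of the 5 members (Fabp1, Fabp2 and Fabp7, GRCm38.p6). Because Fabp1 and Fabp4 are known through PPAR elements, each promoter was searched on both strands for AGGTCA, any 1 base and AGGTCA again with at most 2 mismatches, and for the overlapping letters TAGGTCA that ROR and REV-ERB receptors read. The stretches below show, in capitals, the matches that were found, each within 30 bases written on the plus strand.
Fabp1: acaatcacTGACCTATGGCCTatatctgag
Fabp7: tgggaggatctTGACCTActccgctaaccc
The Fabp1 stretch is chr6:71199804-71199833, and its match has 1 mismatch and lies at positions -67 to -55 from the RefSeq start. A match with at most 1 mismatch occurs in 0.554% of the 32851 promoters, and one with at most 2 mismatches in 3.86%. The same Fabp1 letters include TAGGTCA on the minus strand. The Fabp7 stretch is chr10:57784741-57784770, and TAGGTCA lies there at -171 to -165, on the minus strand. TAGGTCA is found in 2.61% of the promoters. Fabp2 held neither in its window. A match describes letters and not a bound site.

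Library totals ran from 15788242 to 49857017 counts in WT mice and from 21542958 to 28334251 in KO mice, with rRNA genes still included. KO Pio mouse 13 stood apart from the rest. Its median Spearman correlation with its group mates was 0.776, against 0.942 to 0.993 in the other mice, its hepatocyte markers summed to 34020 CPM, against 74110 to 147736, and its mitochondrial transcripts made up 0.853% of the counts, against 3.72% to 21.1%. KO HFD mouse 9 had the highest sum of 8 macrophage markers, 953 CPM, against a median of 410 over all mice. Where leaving out these 2 mice changed a call or a direction of a member, the value without them is also given. WT control mouse 832 had the lowest correlation with its group mates after mouse 13 (0.942) and the lowest hepatocyte sum of its group, 75184 CPM against 84224 to 124320. Pparg itself was measured at 5.79 to 14.2 CPM in WT and 3.01 to 9.90 CPM in KO mice, which overlap and were not tested against each other. With Pio on the control diet its log2 fold change was 0.53 in WT (adjusted p = 0.199 by edgeR) and -0.68 in KO mice (0.0558). The difference KO minus WT was -1.21 (SE 0.32, adjusted p = 0.0219), where 7.87% of all genes were called and 2.49% were lower. Pparg was not refitted without mouse 13. Gene totals also count reads outside the deleted exons and from cells that keep the gene, so they check the KO label only in part.

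The members differed widely in level. By RPKM, which is CPM divided by the length in kilobases of the longest protein-coding transcript of each gene, Fabp1 averaged 7568 in WT and 5049 in KO mice and ranked 10th and 13th among 12927 genes with a length. Fabp1 made up 94.4% to 99.5% of the summed RPKM of the 5 members in every mouse. Fabp2 averaged 49.8 RPKM in WT and 58.0 in KO mice, Fabp5 41.5 and 26.6, and Fabp4 36.5 and 12.5. Fabp7 was the lowest, at 1.49 and 2.43 RPKM, with 8 to 106 counts per mouse. Fabp1 exceeded each other member in 40 of 40 mice, and Fabp2 and Fabp4 exceeded Fabp7 in 40 of 40. The middle of the order was not fixed, with Fabp2 above Fabp4 in 35 mice, above Fabp5 in 29 mice, and Fabp4 above Fabp5 in 20 mice.

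Which of the 3 middle members led depended on the group. Fabp2 was the highest of them in each KO control, KO HFD-Pio, WT HFD and WT HFD-Pio mouse, with 75.0% to 82.9%, 49.0% to 76.3%, 47.1% to 75.2% and 58.6% to 81.0% of the summed RPKM of the 4 members without Fabp1. In WT Pio mice Fabp2 exceeded Fabp4 in 1 of 5 mice and Fabp5 in 1 of 5 mice, and its part was 12.3% to 32.4%. The 4 members together reached 167 to 311 RPKM in WT Pio mice and 38.5 to 167 RPKM in WT control mice. In KO Pio mice they reached 101 to 207 RPKM outside mouse 13, which held 18.0. The bars of levels per transcript length show this change of composition from mouse to mouse.

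**Figure D1:**
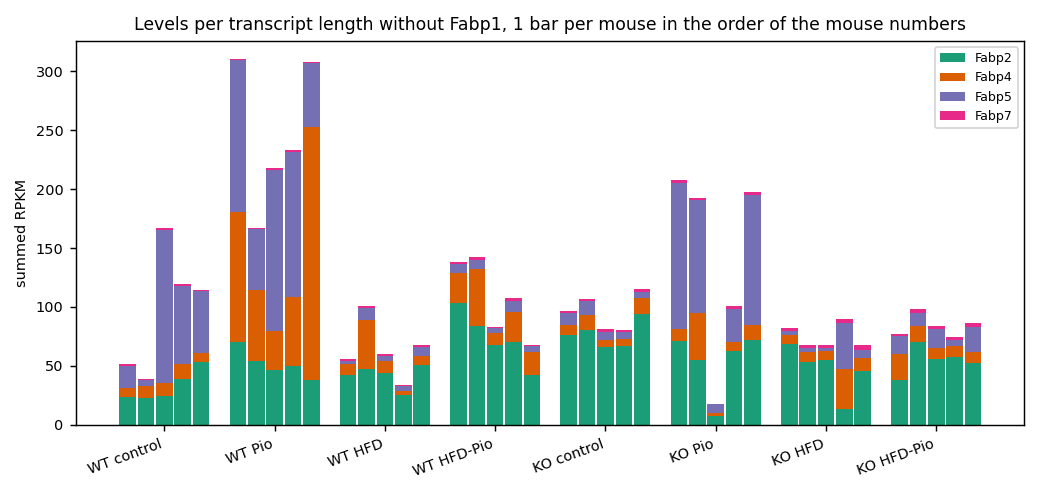
Summed RPKM of Fabp2, Fabp4, Fabp5 and Fabp7, with 1 bar per mouse in the order of the mouse numbers and the groups named below the bars. WT Pio mice hold 167 to 311 RPKM with large Fabp4 and Fabp5 parts, and the short bar in KO Pio is mouse 13 at 18.0 RPKM.

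Fabp4, the adipocyte-type carrier, was higher with Pio in WT livers on the control diet. The 5 WT control mice had 7.14, 8.90, 9.73, 12.0 and 6.59 CPM, and the 5 WT Pio mice had 99.3, 54.1, 30.3, 52.9 and 193 CPM. Every Pio mouse lay above every control mouse. The log2 fold change was 3.27 (SE 0.61, n = 5 against 5, adjusted p = 0.00121 by edgeR), and Fabp4 was the only member of the 5 called, where 3.91% of all tested genes were called and 2.44% were called higher. Leaving out each mouse in turn kept the call, and without mouse 845, which held the 193 CPM, the log2 fold change was 2.74 (adjusted p = 0.00911). Mitochondrial transcripts moved with this comparison, at 4.68% to 21.1% of the counts in WT Pio and 4.84% to 7.04% in WT control mice, with the 21.1% in mouse 845. Their part in the Fabp4 values was not tested. An exact two-sided permutation test of the 5 against 5 mice gave p = 0.00794, the smallest it can give, without adjustment over the 40 such tests run. Fabp1 also showed no overlap here, as did 7.53% of all tested genes, and is described below.

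On the HFD, the same drug gave no call for Fabp4 in WT livers. WT HFD mice had 8.25, 37.0, 9.51, 3.24 and 6.78 CPM and WT HFD-Pio mice 22.4, 43.3, 9.66, 22.8 and 17.4 CPM. The ranges overlapped, and 1 HFD-Pio mouse lay above all HFD mice. The difference was 0.84 on the log2 scale (SE 0.57, 95% interval -0.31 to 1.99, adjusted p = 0.497 by edgeR). It rested in part on single mice, being 1.75 (adjusted p = 0.125) without HFD mouse 827, which held the 37.0 CPM, and 0.49 without HFD-Pio mouse 837, which held the 43.3 CPM. HFD-Pio mice were 1.89 lower than Pio mice on the log2 scale (log2 fold change -1.89, SE 0.57), with an edgeR adjusted p of 0.0901 that did not pass. The DESeq2 alternative called that difference (adjusted p = 0.0395), as did limma (0.0170). The Pio effect on the HFD minus that on the control diet was -2.43 for Fabp4 (SE 0.81, adjusted p = 0.185 by edgeR) where 0.0773% of all genes were called, so a dependence on diet was not shown in the 40 mice, while leaving out KO mice 13 and 9 gave -2.42 with adjusted p = 0.0453.

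In KO livers Fabp4 passed none of the 4 comparisons, at an unadjusted p under 0.05 neither, and the log2 fold changes ran from -0.17 to 0.63. KO control mice had 7.34, 11.3, 5.57, 5.16 and 12.2 CPM. KO Pio mice had 9.36, 35.2, 2.20, 6.62 and 10.9 CPM, with the highest value in mouse 12 and the lowest in mouse 13. Apart from the 30.4 CPM of mouse 9, KO HFD mice held 6.86 to 9.71 CPM, and KO HFD-Pio mice held 8.02 to 20.0 CPM. All 4 KO groups overlapped. On the control diet the Pio effect in KO minus that in WT mice was -2.65 (SE 0.81, adjusted p = 0.0397 by edgeR), where 7.87% of all genes were called and 2.49% were lower. That call was lost when mouse 13 was left out (-2.36, adjusted p = 0.0819) and when any of 8 other mice was left out. On the HFD the difference was -0.95 (SE 0.80, adjusted p = 0.922), where 0.0927% of all genes were called. The HFD effect with Pio in KO minus that in WT mice was 1.72 (SE 0.80, adjusted p = 0.231), where 0.0155% were called.

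Markers of adipocytes moved with Fabp4 in part. The 7 adipocyte markers summed to 9.39 to 21.5 CPM in WT control, 60.5 to 422 in WT Pio, 16.6 to 62.9 in WT HFD and 100 to 483 in WT HFD-Pio mice, and to 7.97 to 44.3 CPM over the KO mice. Cfd, which encodes adipsin, rose with Pio in WT mice on both diets and Adrb3 did not pass. Retn, for resistin, reached 1 CPM in 0 of the 30 mice outside the 2 Pio-fed WT groups, so it could enter the tests only through the groups where it is high. Its test is therefore not counted, but Retn stays in the sum of the 7 markers. Cfd reached 402 CPM in WT Pio and 471 CPM in WT HFD-Pio mice. Its medians were 232 and 256 CPM in these groups, where the sum of the 7 markers had medians of 254 and 287 CPM. The sum in Pio-fed WT mice was thus largely Cfd, which is also among the PPARγ targets counted below. The defining markers Adipoq and Plin1, for adiponectin and the coat protein of adipocyte lipid droplets, had at most 4 and 2 counts in any WT mouse. Lep, for leptin, and Slc36a2 had at most 3 counts there. In KO mice, where the sum was low, these 4 markers reached higher counts. Adipoq had at most 16, Plin1 at most 58 (2.16 CPM), Lep at most 4 and Slc36a2 at most 7. In bulk tissue, more cells of a type and more RNA per cell cannot be told apart. In WT HFD-Pio mice the marker sum overlapped that of WT Pio mice while Fabp4 stayed at 9.66 to 43.3 CPM, as the scatter of Fabp4 against these markers shows.

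**Figure D2:**
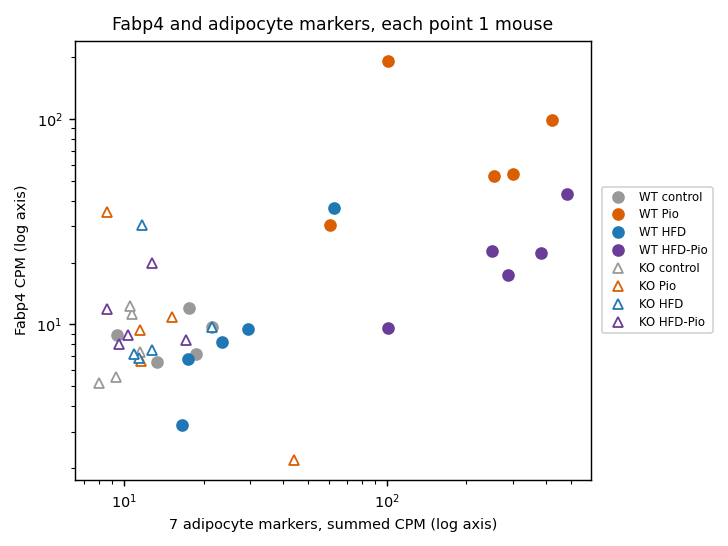
Fabp4 CPM against the summed CPM of 7 adipocyte markers, both on log axes, with 1 point per mouse, filled circles for WT and open triangles for KO. In Pio-fed WT mice the sum is largely Cfd. WT Pio mice lie at 30.3 to 193 CPM of Fabp4, WT HFD-Pio mice at 9.66 to 43.3 CPM, and the KO triangle at the bottom is mouse 13 with 2.20 CPM.

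Fabp5 was the member with the most calls, and it differed with diet. WT control mice had 18.6, 4.80, 128, 65.2 and 51.8 CPM, a wide range within a group, and WT HFD mice had 3.12, 10.0, 3.74, 4.61 and 7.80 CPM. Only control mouse 832, at 4.80 CPM, fell within the HFD range. HFD gave a log2 fold change of -3.20 (SE 0.71, adjusted p = 0.0147 by edgeR), and Fabp5 was the 1 member called, where 1.31% of all genes were called and 0.719% were lower. The exact two-sided permutation test gave p = 0.0238. The edgeR call was lost without control mouse 833, which held the highest value (-2.60, adjusted p = 0.0642), and without HFD mouse 828 (0.0610) or 829 (0.0514). Without control mouse 832 it was kept (-3.49, adjusted p = 0.00679).

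With Pio in both diets, the HFD difference of Fabp5 in WT mice was clearer. WT Pio mice had 127, 50.8, 135, 122 and 53.6 CPM and WT HFD-Pio mice 8.20, 8.22, 3.75, 9.11 and 5.11 CPM. The groups did not overlap, as was true of 6.49% of all genes. On the log2 scale the difference was -3.82 (SE 0.73, adjusted p = 0.00310 by edgeR, exact permutation p = 0.00794), where 1.22% of genes were called and 0.966% were lower. Leaving out each mouse in turn kept this call. Pio itself gave no call for Fabp5 in WT mice. The log2 fold change was 0.86 (SE 0.65, 95% interval -0.45 to 2.18, adjusted p = 0.534) on the control diet and 0.24 (SE 0.68, -1.13 to 1.62, adjusted p = 0.902) on the HFD. On the control diet it was 0.57 without control mouse 832 and 1.47 (adjusted p = 0.261) without control mouse 833, the lowest and the highest of that group.

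In KO mice Fabp5 was higher with Pio on the control diet. KO control mice had 9.88, 12.1, 6.45, 6.07 and 5.33 CPM. KO Pio mice had 123, 94.7, 7.52, 28.3 and 109 CPM, so that 4 of 5 lay above every control mouse and mouse 13 lay among them. Pio gave a log2 fold change of 3.18 (SE 0.71, adjusted p = 0.0115 by edgeR, exact permutation p = 0.0238), where 9.01% of all genes were called and 7.75% were higher. Without mice 13 and 9 it was 3.50 with adjusted p = 0.00207, in a fit that called 105 genes in this comparison instead of 1166. With the KO mice fitted alone, Fabp5 had the same size of change (3.20) and an adjusted p of 0.0950, and that fit called 0 genes in this comparison.

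On the HFD, Pio gave no call for Fabp5 in KO mice. KO HFD mice had 3.53, 3.63, 2.17, 38.3 and 7.16 CPM and KO HFD-Pio mice 14.8, 10.5, 16.2, 5.80 and 20.8 CPM. Mouse 9 held the 38.3 CPM. The log2 fold change was 0.31 (SE 0.66, adjusted p = 1.00 by edgeR), and without mice 13 and 9 it was 1.73, again with adjusted p = 1.00, while 0.0155% of all genes were called with all mice. HFD-Pio mice were lower in Fabp5 than Pio mice (log2 fold change -2.41, SE 0.68, adjusted p = 0.0414 by edgeR), where 4.96% of all genes were called and 4.54% were lower. The HFD-Pio mice overlapped the Pio mice through mouse 13. The call was lost in 6 of the 40 fits that left out 1 mouse, namely without mouse 13 (-2.71, adjusted p = 0.119) and without each of the 5 HFD-Pio mice 16 to 20 (adjusted p = 0.0778 to 0.100). It was also lost with KO mice fitted alone (adjusted p = 0.230) and without the filter on low counts (0.0734), and was kept without mice 13 and 9 (-2.71, adjusted p = 0.0288). HFD against control diet without Pio gave 0.46 (SE 0.66, adjusted p = 1.00), where 0.185% of all genes were called, and -0.95 with adjusted p = 1.00 without mouse 9.

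KO control mice thus held Fabp5 at 5.33 to 12.1 CPM and WT control mice at 4.80 to 128 CPM, values from separate tables that were not tested against each other. The differences between the genotypes in the effects on Fabp5 did not pass. The HFD effect without Pio in KO minus that in WT mice was 3.66 (SE 0.96, adjusted p = 0.106 by edgeR), where 0.0618% of all genes were called, and DESeq2 gave an adjusted p of 0.0182. The Pio effect on the control diet in KO minus that in WT mice was 2.32 (SE 0.93, adjusted p = 0.102), and it was 2.62 with adjusted p = 0.0278 without mice 13 and 9. The Pio effect on the HFD minus that on the control diet was -2.87 in KO mice (SE 0.94, adjusted p = 0.339), where edgeR called 0 genes, with 1562 at an unadjusted p under 0.05, DESeq2 called 0 and limma 52, and -0.62 in WT mice (SE 0.94, adjusted p = 0.850). An effect called in one genotype or diet is therefore not shown to differ from that in the other for Fabp5.

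**Figure D3:**
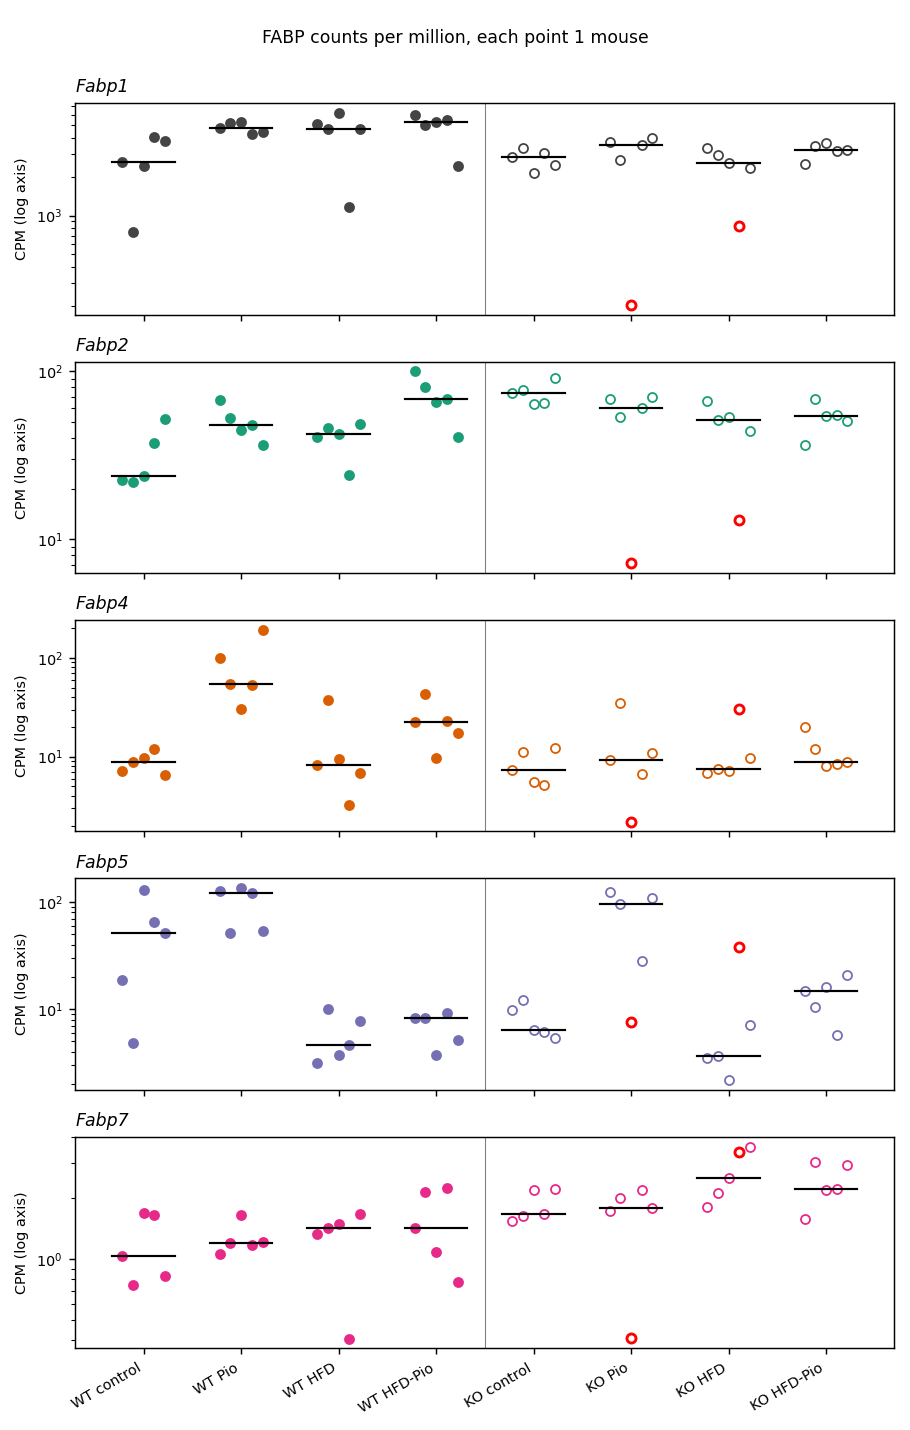
CPM of the 5 members on log axes in the 8 groups, with 1 point per mouse, filled for WT and open for KO, black lines at group medians and red rings around KO Pio mouse 13 and KO HFD mouse 9. Fabp4 stands high in WT Pio (30.3 to 193 CPM), and Fabp5 is at 10.0 CPM or less in each WT HFD and WT HFD-Pio mouse.

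Fabp1, the main carrier of the hepatocyte, passed no test. WT control mice had 2600, 748, 2430, 4025 and 3805 CPM and WT Pio mice 4743, 5163, 5345, 4284 and 4417 CPM. Every Pio mouse lay above every control mouse, with an exact permutation p of 0.00794 before any adjustment. The edgeR log2 fold change was 0.82 (SE 0.44, 95% interval -0.08 to 1.71, adjusted p = 0.341), and it was 0.83 with adjusted p = 0.0554 without KO mice 13 and 9. WT HFD mice had 5073, 4688, 6249, 1163 and 4664 CPM and WT HFD-Pio mice 5989, 5033, 5341, 5529 and 2414 CPM. A single low mouse thus marked each of these 2 groups.

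In KO livers Fabp1 also gave no call. The group medians were 2823 CPM in KO control, 3501 in KO Pio, 2539 in KO HFD and 3199 in KO HFD-Pio mice. The lowest values, 203 and 836 CPM, were those of mice 13 and 9. The 4 log2 fold changes ran from -0.20 to 0.41 with SE 0.44, and their 95% intervals reached from -1.09 to 1.30. The difference between KO and WT in the Pio effect on the control diet was -0.78 (SE 0.62, adjusted p = 0.432).

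Fabp2, the intestinal form, was measured at 7.18 to 99.9 CPM and also passed no test in the 40 mice. WT control mice had 22.4, 22.0, 23.6, 37.2 and 51.7 CPM and WT Pio mice 67.4, 52.3, 44.4, 47.9 and 36.5 CPM, with 2 Pio mice above all controls. EdgeR gave a log2 fold change of 0.66 (SE 0.36, adjusted p = 0.342). WT HFD mice had 40.6, 45.7, 42.3, 24.1 and 48.7 CPM and WT HFD-Pio mice 99.9, 80.6, 65.1, 68.2 and 40.6 CPM, with 4 HFD-Pio mice above all HFD mice. The log2 fold change on the HFD was 0.82 (SE 0.36, 95% interval 0.08 to 1.55, adjusted p = 0.264 by edgeR), where 1.08% of all genes were called. Without KO mice 13 and 9, in a fit that shares 1 estimate of the spread over all groups, both Pio differences of Fabp2 in WT mice passed (0.67 with adjusted p = 0.0328 and 0.83 with adjusted p = 0.0142).

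In KO mice the control group had the highest median of Fabp2, with values of 73.8, 77.4, 63.7, 64.6 and 90.4 CPM. KO Pio mice held 7.18 to 69.7 CPM and KO HFD-Pio mice 36.2 to 68.2 CPM, and both overlapped the control mice. KO HFD mice had 66.0, 51.3, 53.0, 13.1 and 43.8 CPM, and 4 of them lay below every control mouse. The log2 fold change was -0.70 (SE 0.36, adjusted p = 1.00 by edgeR), and -0.46 without mice 13 and 9. Reads of intestinal tissue were looked for because of the origin of Fabp2. Of 7 enterocyte markers, Sis, for the brush border enzyme sucrase-isomaltase, had no count in any mouse of any group, and Alpi had none in 6 of the 8 groups. The sum of the 7 was 311 to 1608 CPM, and only 2 of them passed the filter on low counts, Apoa4 and Mttp, which hepatocytes express too. Apoa4, an apolipoprotein, was itself lower with HFD in KO mice without Pio (log2 fold change -2.16, adjusted p = 0.0255 by edgeR) and with Pio (-1.94, adjusted p = 0.0314), and its part in the Fabp2 values was not tested.

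Fabp7, the brain form, was near the lower limit of what could be tested. It had 0.405 to 3.60 CPM and 8 to 106 counts per mouse, and reached 1 CPM in 35 of the 40 mice. No log2 fold change of Fabp7 passed, and the 8 within a genotype lay between -0.19 and 0.55 with SE of 0.32 to 0.35. The largest was HFD-Pio against Pio in KO mice (0.55, 95% interval -0.11 to 1.22, adjusted p = 0.313 by edgeR). KO HFD mice had 1.81, 2.12, 2.52, 3.38 and 3.60 CPM, and 3 of 5 lay above all KO control mice.

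**Figure D4:**
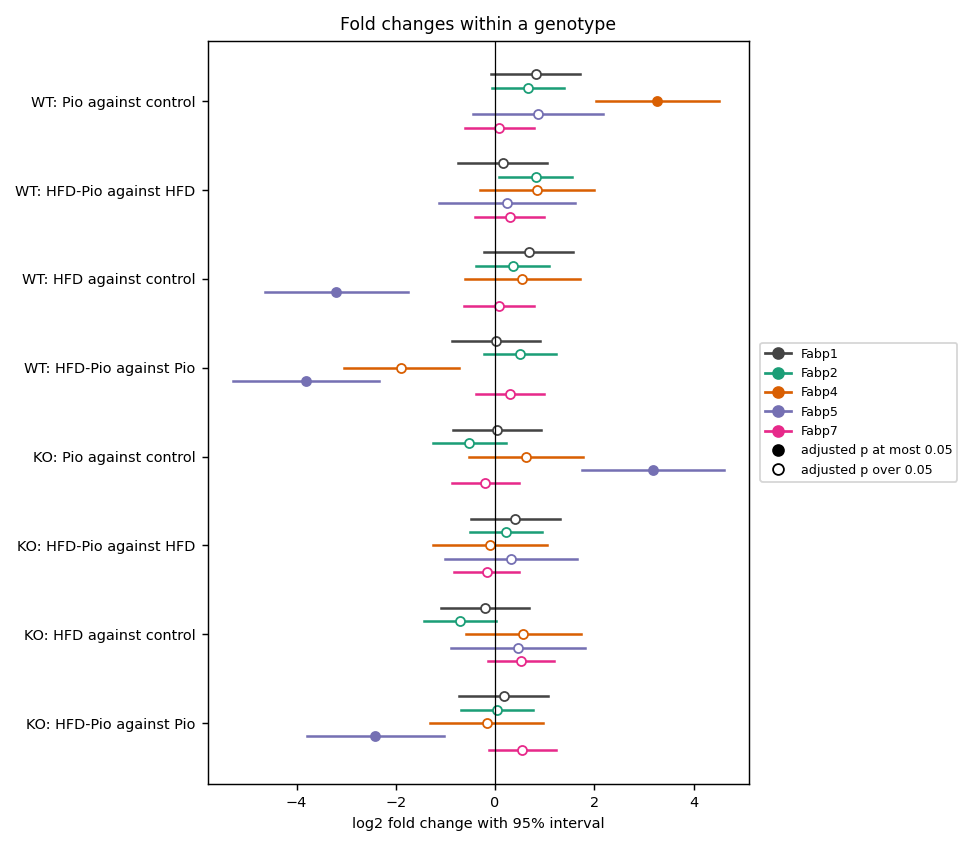
Log2 fold changes of the 5 members in the 8 comparisons within a genotype, with 95% intervals derived from the edgeR tests, filled where the adjusted p was at most 0.05. The filled points are Fabp4 with Pio in WT mice (3.27) and 4 points of Fabp5, at -3.20, -3.82, 3.18 and -2.41.

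Over the 8 comparisons, Fabp4 was called 1 time and Fabp5 4 times, Fabp1, Fabp2 and Fabp7 in none. Of the 6 comparisons of effects, Fabp4 was called in the difference of the Pio effects on the control diet, and the plot of differences between effects shows the width of the other intervals. The edgeR tests of Fabp1 and Fabp7 also gave 0 unadjusted p under 0.05 in all 14 comparisons. For Fabp2 there was 1 among the 8 comparisons and 2 among the 6 comparisons of effects. DESeq2 called neither Fabp1, Fabp2 nor Fabp7, and limma called Fabp2 in HFD-Pio against Pio in WT mice (0.57, adjusted p = 0.0492).

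**Figure D5:**
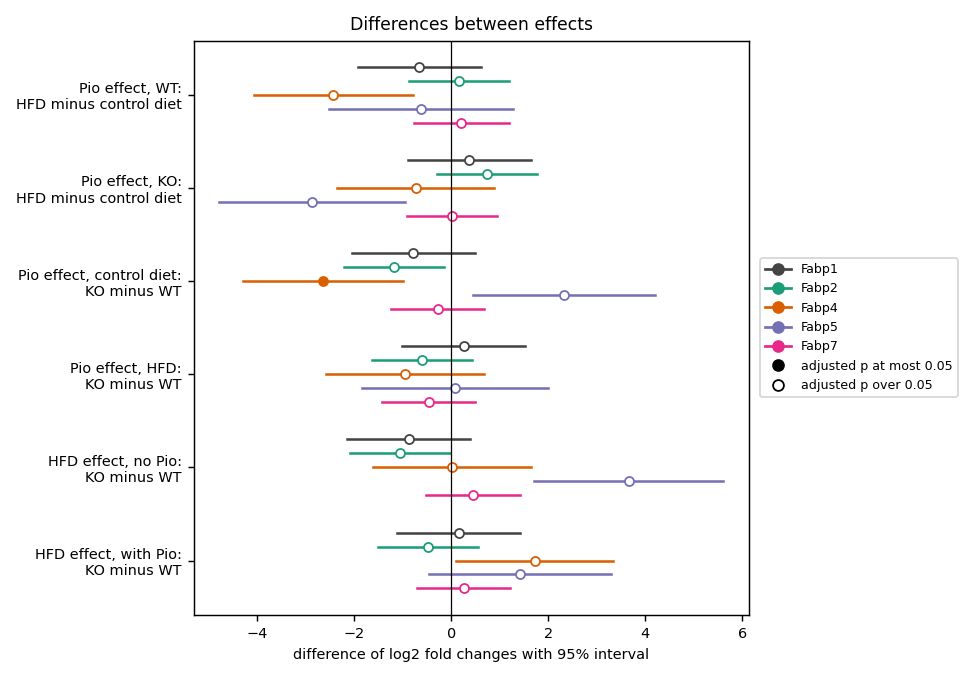
Differences between effects for the 5 members, with 95% intervals derived from the edgeR tests, filled where the adjusted p was at most 0.05. The filled point is Fabp4 in the Pio effect on the control diet, KO minus WT (-2.65), and Fabp5 has the intervals farthest from 0 among the open points (3.66 for the HFD effect without Pio).

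Fabp5 and Fabp4 also varied most within groups. The within-group SD of log2 CPM was 1.17 for Fabp5, 0.922 for Fabp4, 0.889 for Fabp1, 0.685 for Fabp2 and 0.558 for Fabp7, against a median of 0.390 over the 12942 genes. Fabp5 ranked 90th of them and Fabp4 246th. Without mice 13 and 9 the SD of Fabp5 was 0.925 and its rank 157, that of Fabp1 was 0.552 and its rank 1072, and that of Fabp2 was 0.361 and its rank 3581, against a median of 0.262 over all genes.

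The genes most like each member over the mice were ranked by the mean of 2 Spearman correlations, over 20 WT and over 20 KO mice, which share diets and libraries. For Fabp4 they were Lpl, the lipoprotein lipase (mean rho 0.829), Anxa2 (0.793) and Efr3b (0.733). For Fabp5 they were the noncoding Gm28548 (0.913), G6pdx, the entry enzyme of the pentose phosphate pathway (0.844), and Abhd5, the activator of adipose triglyceride lipase (0.836). For Fabp1 the list was led by the respiratory complex I subunits Ndufb3 (0.765) and Ndufa5 (0.756), followed by Gstt1 (0.741). Fabp2 was nearest to Bet1 (0.838), Suclg1 (0.820) and Pcca (0.762), of which the last encode mitochondrial enzymes. Fabp7 was nearest to Ms4a8a (0.702), the macrophage receptor Cd163 (0.635) and Ccl6 (0.616), of which Ccl6 had rho 0.370 in WT and 0.862 in KO mice. These ranks moved without mice 13 and 9. Cd163 then ranked 5th for Fabp7 (mean rho 0.565), Gstt1 9th for Fabp1 (0.672) and G6pdx 5th for Fabp5 (0.837), while the first genes of Fabp2, Fabp4, Fabp5 and Fabp7 stayed first and Ndufb3 was 2nd for Fabp1.

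Among the members themselves, Fabp1 and Fabp2 had rho 0.680 in WT and 0.522 in KO mice, and 0.344 in KO mice without mice 13 and 9. Fabp4 and Fabp5 had 0.520 and 0.456, and 0.397 without these mice. Fabp1 and Fabp5 had -0.12 in WT and 0.374 in KO mice, and 0.529 in KO mice without mice 13 and 9.

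The other FABP genes were hardly read in these livers. Fabp3, the heart form, had at most 8 counts in a mouse, Fabp12 at most 7, Fabp6, the ileal bile acid carrier, and Fabp9 at most 1, and Pmp2 had none. None of these 5 reached the filter. Fabp5 shares 198 of 3611 of its 50-base words (5.48%) with 5 processed pseudogenes, so a part of its reads may have been left out as not unique. These words were taken from all its annotated transcripts, whose exons cover 3567 bases. Its coding transcript has 987 bases, so the share there can be larger than 5.48% and was not measured. No other member shared such words with another gene.

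Other genes that bring fatty acids into the cell or activate them were called in part. Of 13 genes of uptake and activation, all tested, 1 was higher with Pio in control-fed WT mice, where 2.44% of all genes were higher, and 1 on the HFD, where 1.08% were called. This was Cd36, the membrane receptor for fatty acids, at log2 fold changes of 1.78 (adjusted p = 0.00528 by edgeR) and 1.98 (adjusted p = 0.00509). With HFD alone in WT mice Slc27a2 (0.82, adjusted p = 0.0102) and Acsl1 (1.08, adjusted p = 0.0134), which transport and activate fatty acids, rose, so that 2 of the 13 were called where 1.31% of all genes were. At an unadjusted p under 0.05 there were 7 of the 13, beside 1710 of 12942 genes. The medians of the 13 genes in the 8 comparisons ran from -0.09 to 0.27, beside medians of -0.02 to 0.03 over all genes. In KO mice Slc27a1 was the 1 gene of the list called with Pio on the control diet (1.29, adjusted p = 0.0476 by edgeR). This was 1 of 13, in a comparison where 9.01% of all genes were called and 7.75% were higher.

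Known targets of the receptors were counted beside Fabp1 and Fabp4. Of 12 PPARγ targets of the adipocyte type, 9 were tested. With Pio in WT mice, 7 rose on the control diet, where 2.44% of all genes were higher. On the HFD 6 rose, where 1.08% of all genes were called. Cidea and Mogat1 are among both counts and would not have reached the filter without the 10 Pio-fed WT mice. Of the 7 that would, 5 rose on the control diet and 4 on the HFD. The lipid droplet protein Plin4 (2.16, adjusted p = 6.76e-06 by edgeR) was among these 5 on the control diet. EdgeR called 0 of the 7 in the 4 KO comparisons, where 0.0155% to 9.01% of all genes were called. At most 1 of the 7 had an unadjusted p under 0.05 in a comparison. Cidea and Mogat1 reached 1 CPM in 1 and 3 of the 30 other mice and are not counted here. On the control diet the Pio effect in KO minus WT mice was lower for Plin4 (-2.86), Cfd (-7.11), Cidec (-2.57) and Cd36 (-1.96), among others. There 2.49% of all genes were lower. On the HFD it was lower for Cfd (-7.82) and Cidec (-2.81), where 0.0927% of all genes were called. Fabp4, not in this list, rose on the control diet, as 5 of these 7 did, and did not pass on the HFD, where 4 of the 7 did.

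Of 21 PPARα targets, all tested, 5 rose and 1 fell with Pio in control-fed WT mice, where 3.91% of all genes were called and 2.44% were higher. On the HFD 3 of the 21 rose, where 1.08% of all genes were called. Vnn1, which encodes the pantetheinase vanin, rose on both diets (1.81, adjusted p = 0.00207, and 1.34, adjusted p = 0.0491, by edgeR), and Fgf21, a hepatic hormone of fasting, fell on the control diet (-3.01, adjusted p = 0.00101). The medians were 0.57 and 0.42, and Fabp1, which is not in the list, had 0.82 and 0.15 without a call. In KO mice 2 of the 21 fell with Pio on the control diet, among them Cyp4a10 (-1.55, adjusted p = 0.0346 by edgeR), and 0 were called higher. In that comparison 9.01% of all genes were called and 7.75% were higher.

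Markers of the cells that also make FABPs gave few calls. EdgeR called 0 of 8 macrophage markers in the 8 comparisons, with at most 1 at an unadjusted p under 0.05 in each, and their sums ran from 182 to 953 CPM with KO HFD mouse 9 highest, the mouse that also held the highest Fabp5 and Fabp4 of its group. Of 8 endothelial markers, Eng was called with Pio in KO mice on the control diet (0.87, adjusted p = 0.0428 by edgeR), where 7.75% of all genes were higher. KO Pio mouse 13 held the highest endothelial sum, 623 CPM, and the lowest Fabp5 of its group. Of 15 clock genes and their outputs, 4 rose and 4 fell with Pio in control-fed WT mice, where 3.91% of all genes were called and 2.44% were higher. Fabp7 had a log2 fold change of 0.09 in that comparison. The part of any of these in the values of the members was not tested.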

How the data were processed

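Poly-A RNA of 40 mouse livers was sequenced. The authors aligned reads to GRCm38 (Ensembl 76) with STAR 2.0.4b and counted, with Subread featureCounts 1.4.5, the reads that aligned once and to 1 gene (versions from the submitters' processing notes). The deposited tables, 1 for each genotype, hold these raw counts. All 40 columns matched a sample by mouse number and group. Whether mice of a group were housed or sequenced apart is not given in the sources used here.

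Tables were joined by Ensembl identifier (40594 genes in both), repeated lines were dropped and 355 rRNA genes removed. A gene entered the tests if 5 or more mice had 1 CPM or more. EdgeR 4.0.16 in R 4.3.3 fitted 1 model with a mean for each of 8 groups (TMM, robust quasi-likelihood, common dispersion 0.085), and p was adjusted by Benjamini-Hochberg over 12942 genes within each of 14 comparisons, with calls at 0.05. The fit was tested on simulated data. CPM used TMM library sizes, log2 CPM a prior count of 2, and RPKM the longest protein-coding transcript of GENCODE M21 basic. Exact two-sided permutation tests ran over 252 splits. Named genes were the members, the 3 genes most like each, and up to 3 called genes per list and comparison with the lowest adjusted p, some of which are not reported here. The members and the lists were chosen with earlier results of these data known. Alternatives were RLE factors, no filter, DESeq2 1.42.0, limma 3.58.1 with voom and quality weights, each genotype alone and each mouse left out. Intervals cover the fit's error. Python 3.11.15 with scipy 1.17.1 and matplotlib 3.10.9 was used. Sequences are from RefSeq (GRCm38.p6).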

Additional observations from a re-analysis of the deposited data

Results flagged for a closer look

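Of 40 sets of 5 values (5 members in 8 groups), 10 held a mouse whose gap to the nearest of the others, on the log2 CPM scale, was above Dixon's 95% critical value when divided by the range of the group. Chance gives this in about 1 of 20 groups. The 10 fell in 4 mice. KO Pio mouse 13, the library that stood apart as a whole, was lowest in Fabp1 (203 CPM, against 2678 to 4008 in the others), Fabp2 (7.18 CPM, against 53.3 to 69.7) and Fabp7 (0.409 CPM, from 11 counts, against 1.73 to 2.19). KO HFD mouse 9 was lowest in Fabp1 (836 CPM, against 2346 to 3331) and Fabp2 (13.1 CPM, against 43.8 to 66.0) and highest in Fabp4 (30.4 CPM, against 6.86 to 9.71). WT HFD mouse 829 was lowest in Fabp1 (1163 CPM, against 4664 to 6249), Fabp2 (24.1 CPM, against 40.6 to 48.7) and Fabp7 (0.405 CPM, from 8 counts, against 1.33 to 1.68). WT HFD-Pio mouse 840 was lowest in Fabp1 (2414 CPM, against 5033 to 5989). Mouse 829 had a median Spearman correlation of 0.954 with its group mates and mitochondrial transcripts at 3.72% of its counts, and mouse 840 had 7.31%. Hepatocyte markers summed to 96874 CPM in mouse 829, below its group mates at 111786 to 147736, and its Alb was 50802 CPM, against 79088 to 109384. In mouse 840 they summed to 115580 CPM, above its group mates at 106894 to 112504. The part of these library values in the low Fabp1 was not tested.

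The Pio effect on Fabp4 on the control diet differed between the genotypes, with a difference KO minus WT of -2.65 (adjusted p = 0.0397 by edgeR), which did not pass when KO Pio mouse 13 was left out.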

How the results depend on the processing

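Each of the 5 members was refitted in 14 comparisons, 70 results in all, and values below are log2 fold changes or their differences. With RLE size factors in place of TMM, 70 of 70 kept their direction and their side of the threshold, with DESeq2 68, without the filter 66, with limma 54 and without KO mice 13 and 9 51, and with each genotype fitted alone 47 of 50. Without the filter on low counts, the call was lost at -2.41 for Fabp5 HFD with Pio in KO (adjusted p 0.0734) and -2.64 for Fabp4 Pio effect KO minus WT on control diet (adjusted p 0.0928). In the same fit, the sign turned, with values of -0.0079 for Fabp7 Pio effect on HFD minus control diet in KO and -0.012 for Fabp5 Pio effect KO minus WT on HFD. With DESeq2, a call was gained at -1.90 for Fabp4 HFD with Pio in WT (adjusted p 0.0395) and 3.67 for Fabp5 HFD effect KO minus WT no Pio (adjusted p 0.0182). With limma and quality weights, a call was gained at 0.57 for Fabp2 HFD with Pio in WT (adjusted p 0.0492), -1.17 for Fabp4 HFD with Pio in WT (adjusted p 0.017) and 2.32 for Fabp5 Pio effect KO minus WT on control diet (adjusted p 0.0137). In the same fit, the sign turned, with values of -0.012 for Fabp7 Pio on control diet in WT, 0.10 for Fabp7 Pio on control diet in KO, 0.00094 for Fabp7 Pio on HFD in KO, 0.39 for Fabp4 Pio on HFD in KO, -1.16 for Fabp5 HFD no Pio in KO, -0.25 for Fabp2 HFD with Pio in KO, -0.16 for Fabp1 HFD with Pio in KO, 0.0090 for Fabp4 HFD with Pio in KO, -0.10 for Fabp7 Pio effect on HFD minus control diet in KO, -0.11 for Fabp1 Pio effect on HFD minus control diet in KO, 0.12 for Fabp7 Pio effect KO minus WT on control diet, -0.031 for Fabp7 HFD effect KO minus WT with Pio and -0.25 for Fabp1 HFD effect KO minus WT with Pio. With each genotype fitted alone, the call was lost at 3.20 for Fabp5 Pio on control diet in KO (adjusted p 0.095) and -2.42 for Fabp5 HFD with Pio in KO (adjusted p 0.23). In the same fit, the sign turned, with values of -0.0093 for Fabp7 Pio effect on HFD minus control diet in KO. Without KO mice 13 and 9, a choice made after seeing the data, the call was lost at -2.36 for Fabp4 Pio effect KO minus WT on control diet (adjusted p 0.0551). In the same fit, a call was gained at 0.67 for Fabp2 Pio on control diet in WT (adjusted p 0.0328), 0.83 for Fabp2 Pio on HFD in WT (adjusted p 0.0142), -1.89 for Fabp4 HFD with Pio in WT (adjusted p 0.0194), -2.42 for Fabp4 Pio effect on HFD minus control diet in WT (adjusted p 0.0453) and 2.62 for Fabp5 Pio effect KO minus WT on control diet (adjusted p 0.0278). In the same fit, the sign turned, with values of 0.074 for Fabp7 Pio on control diet in KO, -0.017 for Fabp2 Pio on HFD in KO, 0.55 for Fabp4 Pio on HFD in KO, -0.94 for Fabp5 HFD no Pio in KO, 0.031 for Fabp1 HFD no Pio in KO, -0.085 for Fabp4 HFD no Pio in KO, -0.26 for Fabp2 HFD with Pio in KO, -0.13 for Fabp1 HFD with Pio in KO, -0.15 for Fabp7 Pio effect on HFD minus control diet in KO, -0.17 for Fabp1 Pio effect on HFD minus control diet in KO, -0.61 for Fabp4 HFD effect KO minus WT no Pio, -0.00068 for Fabp7 HFD effect KO minus WT with Pio and -0.15 for Fabp1 HFD effect KO minus WT with Pio. No result that turned its sign had been called. The cause of these changes was not tested. No paired analysis was possible because the mouse numbers differ in every group and none is shared between groups.

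Of 2800 refits with 1 mouse left out, 2719 kept direction and side of the threshold, 60 turned their sign, 18 lost a call and 3 gained one. For Fabp1, leaving out each mouse gave -0.15 to 0.31 for HFD effect KO minus WT with Pio, -0.35 to 0.015 for HFD no Pio in KO, -0.14 to 0.33 for HFD with Pio in KO, -0.073 to 0.19 for HFD with Pio in WT, -0.088 to 0.34 for Pio on HFD in WT and -0.12 to 0.36 for Pio on control diet in KO. For Fabp2, leaving out each mouse gave -0.26 to 0.16 for HFD with Pio in KO, -0.087 to 0.32 for Pio effect on HFD minus control diet in WT, -0.017 to 0.39 for Pio on HFD in KO and 0.67 to 0.98 for Pio on HFD in WT. For Fabp4, leaving out each mouse gave -0.63 to 0.95 for HFD effect KO minus WT no Pio, -0.096 to 0.75 for HFD no Pio in KO, -0.37 to 0.80 for HFD no Pio in WT, -0.48 to 0.65 for HFD with Pio in KO, -2.25 to -1.36 for HFD with Pio in WT, -1.06 to 0.055 for Pio effect on HFD minus control diet in KO, -3.47 to -2.10 for Pio effect KO minus WT on control diet, -0.42 to 0.55 for Pio on HFD in KO and -0.18 to 0.93 for Pio on control diet in KO. For Fabp5, leaving out each mouse gave 2.25 to 3.96 for HFD effect KO minus WT no Pio, -0.95 to 0.73 for HFD no Pio in KO, -3.49 to -2.60 for HFD no Pio in WT, -2.71 to -2.14 for HFD with Pio in KO and -0.24 to 1.47 for Pio effect KO minus WT on HFD. For Fabp7, leaving out each mouse gave -0.053 to 0.32 for HFD no Pio in WT, -0.26 to 0.15 for Pio effect on HFD minus control diet in KO, -0.023 to 0.39 for Pio effect on HFD minus control diet in WT, -0.32 to 0.074 for Pio on control diet in KO and -0.040 to 0.26 for Pio on control diet in WT. Without KO Pio mouse 13 alone, calls were gained for Fabp2 Pio on HFD in WT (0.83, adjusted p 0.0435), Fabp4 HFD with Pio in WT (-1.89, 0.0295) and Fabp5 HFD effect KO minus WT no Pio (3.71, 0.0433). The calls of Fabp4 with Pio in WT on the control diet, Fabp5 HFD with Pio in WT and Fabp5 with Pio in KO on the control diet were kept in each of the 40 refits.

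The share of all genes called, which stands beside the members' counts, moved more. For Pio on the control diet in WT mice 506 genes were called, against 315 without the filter, 813 with DESeq2, 3095 with limma, 936 with WT mice alone and 2198 without mice 13 and 9. The same counts were 170, 101, 376, 327, 345 and 1035 for HFD without Pio in WT, and 158, 86, 380, 2937, 203 and 1272 for HFD with Pio in WT mice. In KO mice, with KO mice alone in the place of WT mice alone, they were 1166, 818, 1427, 1216, 0 and 105 for Pio on the control diet, and 642, 81, 1012, 309, 0 and 17 for HFD with Pio. For the Pio effect KO minus WT on the control diet they were 1018, 565, 1392 and 1998 for the first 4 and 871 without mice 13 and 9. Fabp7 rests on 8 to 106 counts per mouse, and how far depth limits its tests was not examined.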
